A study of Rattus norvegicus with 12 samples.

Results

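The 41 genes described here mark monocytes and macrophages, the phagocytes that patrol blood and tissues. They were taken as a list of symbols that was chosen with earlier results of these data known. A gene counted as measured where a probe set of the array carries its symbol and no other. By that rule 40 of the 41 were measured, out of 18166 genes on the array, and Fcgr2a was not, because its probe sets also carry the symbols of neighbouring copies. The members fall into 3 classes, namely 24 pan-macrophage genes (23 measured), 7 genes linked with resident macrophages and 10 linked with recruited or lipid-handling macrophages.

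Expression was read in whole urinary bladder of female Sprague Dawley rats aged about 3 months, on 1 array per sample. Of the 12 samples, 6 came from rats that had a sham operation and 6 from rats labelled denervated, in which ganglia were frozen on both sides during surgery (called pelvicus freezing in the labels). The denervated bladders were taken 10 days after that operation, and the time for sham bladders is not stated. All rats were operated on, so the labelled difference between the groups is the freezing of the ganglia. Whether each sample came from its own animal is not stated, and p-values therefore measure the spread between these samples.

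Macrophages depend on the growth factor Csf1 and its receptor Csf1r, and the transcription factor PU.1, encoded by Spi1, drives much of their gene programme. Some settle in organs early and maintain themselves there, while others arise from blood monocytes that enter through chemokine receptors such as Ccr2. In tissue that has lost its nerves, macrophages are known for clearing the debris of axons and myelin, and lipid-laden macrophages switch on genes for taking up and storing lipid.

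PU.1 is known to bind purine-rich DNA around the letters GAGGAA, so stretches just before the start sites of several members are shown here for their sequence. Of the 40 measured members, 29 matched a RefSeq promoter of build GRCr8. The stretches shown were picked among those with these letters on either strand. The 100 bases before the start are printed 5′ to 3′ on the gene's strand, and the capitals mark GAGGAA or its reverse complement TTCCTC.
Cd68, chr10:54882442-54882541, minus strand: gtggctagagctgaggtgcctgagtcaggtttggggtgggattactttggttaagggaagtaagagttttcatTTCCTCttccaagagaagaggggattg
Lyz2, chr7:54798012-54798111, minus strand: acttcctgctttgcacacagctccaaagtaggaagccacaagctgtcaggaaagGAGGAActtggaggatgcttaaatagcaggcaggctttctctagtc
Laptm5, chr5:148371780-148371879, plus strand: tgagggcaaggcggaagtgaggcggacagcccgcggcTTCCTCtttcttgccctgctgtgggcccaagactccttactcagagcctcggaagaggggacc
Ms4a6a, chr1:217839574-217839673, minus strand: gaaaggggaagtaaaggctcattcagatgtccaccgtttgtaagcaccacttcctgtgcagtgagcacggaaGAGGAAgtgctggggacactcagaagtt
Fcgr3a, chr13:85782536-85782635, plus strand: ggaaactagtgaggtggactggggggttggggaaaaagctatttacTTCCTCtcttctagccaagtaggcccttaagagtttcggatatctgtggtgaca
Trem2, chr9:20151780-20151879, minus strand: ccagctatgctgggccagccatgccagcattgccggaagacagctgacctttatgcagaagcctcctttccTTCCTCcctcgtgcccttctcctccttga
Olr1, chr4:164634548-164634647, minus strand: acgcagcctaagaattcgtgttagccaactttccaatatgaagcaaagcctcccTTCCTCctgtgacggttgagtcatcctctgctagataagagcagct

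In the 250 bases before the start, GAGGAA on either strand was found in 19 of 31 member windows (61.3%). A gene can have several starts, and 3 of the 31 windows belong to Apoe, 1 of them with a match. The share over all 33469 RefSeq windows of that length was 23.3%. Of the 25 matched members called higher below, 16 held it. Among those not called, Ccr1, Cd86 and Marco held it and Cd163 did not. Within the last 100 bases it was 11 of 31 (35.5%) against 9.78%. The longer GAGGAAGT, which contains GAGGAA, stood in the 250 bases of Fcgr3a and Ms4a6a only, 2 of 31 windows (6.45%, against 2.04% of all). TATAAA was present in 3 member windows (9.68%, against 12.9%), those of Irf8, Laptm5 and Marco. Letters in a window are a description, not a binding site.

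Array medians lay between 5.82 and 5.90 on the log2 scale, in which a step of 1 is a doubling. The labels call the tissue mostly smooth muscle, and the muscle genes Myh11 (13.08 to 13.19) and Des (12.94 to 13.21) were bright in sham arrays, but so was the urothelial gene Upk2 (12.48 to 12.78). Denervated replicate 2 stood apart. On the first principal component, with 58.0% of the variance, it lay at -5.8, between the sham arrays (-30.2 to -22.5) and the other 5 denervated arrays (25.9 to 42.5). In whole tissue, more cells of a type and more RNA per cell cannot be told apart.

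Of the 40 measured macrophage genes, 34 rose after denervation, none fell and 6 were not called. A gene was called where limma's test, adjusted by Benjamini-Hochberg over all 18166 genes, gave an adjusted p under 0.05. By that rule 11.9% of all genes were called higher and 16.9% lower. Because the list was chosen with earlier results known, its counts beside these shares are a description and not a test. No member fell by the exact rank-sum test either, and 0 were lower at an unadjusted limma p under 0.05. The median change over the members was 1.46 on the log2 scale, against -0.04 over all genes. In 31 members every denervated value lay above every sham value, which held for 5.76% of all genes, and no member had the reverse, which held for 7.59%. Of the 34 that rose, 29 rose at least 2-fold, a size that 2.90% of all genes reached with a call. All 34 were also called when any single array was left out, denervated replicate 2 included, which raised the median change of the members to 1.57.

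**Figure D1:**
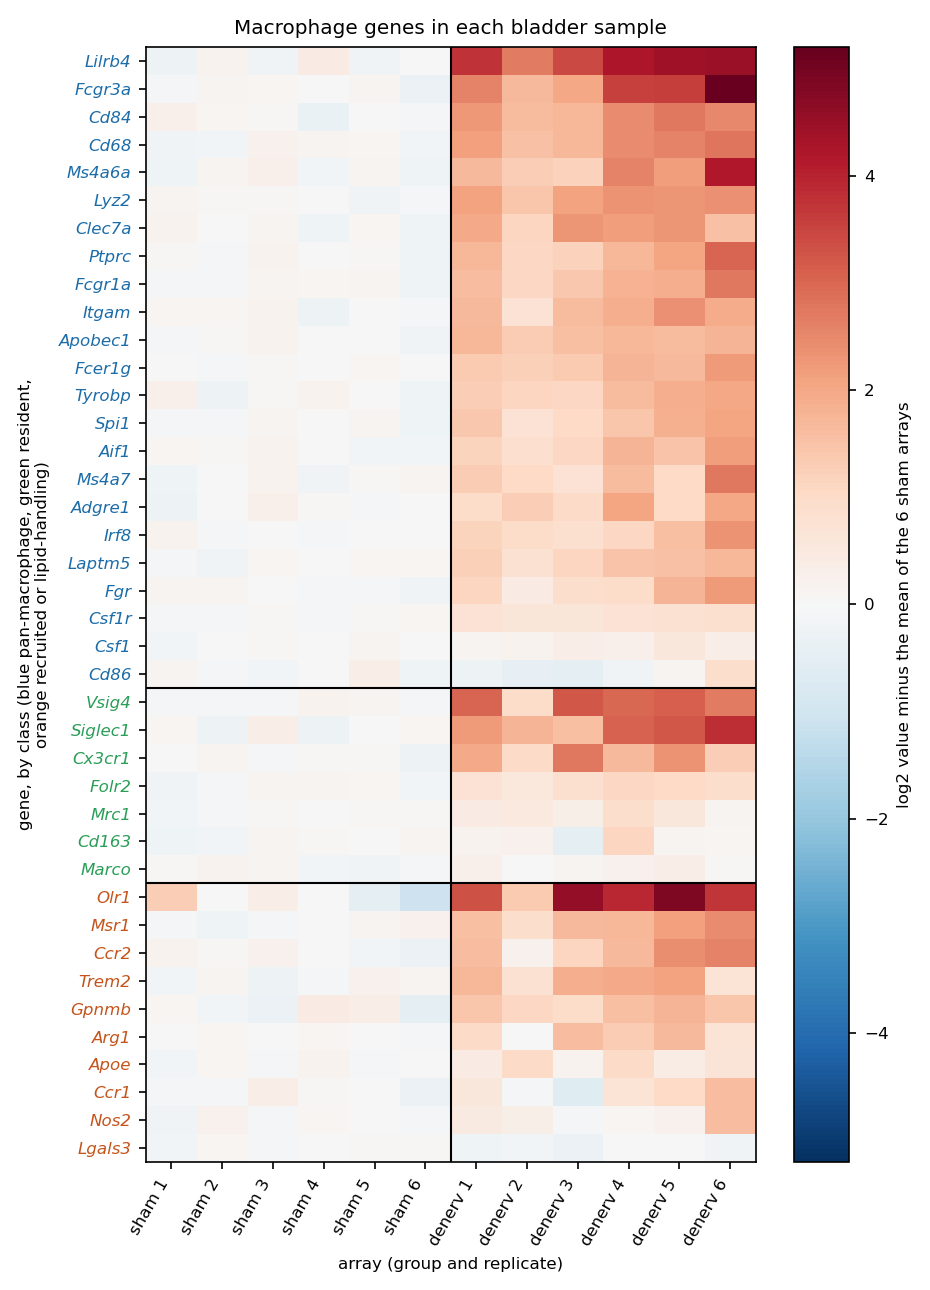
Each row is 1 macrophage gene and each column 1 array, and the colour gives the log2 value minus the mean of the 6 sham arrays (scale from blue below to red above). The denervated columns are red for most genes and often palest in replicate 2, while Cd86, Cd163, Marco and Lgals3 stay near white in most columns.

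The growth factor and its receptor rose by little. Csf1r, the receptor that monocytes and macrophages need to survive, ran from 9.44 to 9.64 in sham arrays (median 9.56) and from 10.18 to 10.39 in denervated arrays (median 10.30). The groups did not overlap and were both tight, and the rise was 0.74 ± 0.06 (SE, n = 6 per group), or 1.67-fold, with a limma adjusted p of 2.78e-05. Csf1, its ligand, which stromal cells make, lay between 8.48 and 8.75 (median 8.59) in sham and between 8.74 and 9.18 (median 8.91) in denervated arrays. Replicate 1 was the 1 denervated array within the sham range. Csf1 rose by 0.31 ± 0.08, or 1.24-fold (limma adjusted p = 0.00895).

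Both transcription factors of the list rose. Spi1, which encodes PU.1, stood at 7.15 to 7.51 (median 7.35) in sham and 8.12 to 9.40 (median 8.77) in denervated arrays, a rise of 1.42 ± 0.18 (limma adjusted p = 0.000200, n = 6 per group). Irf8, an interferon regulatory factor of monocytes and dendritic cells, rose by 1.32 ± 0.21 (limma adjusted p = 0.000627), from a sham range of 7.19 to 7.47 (median 7.24) to 8.09 to 9.62 (median 8.38). Neither gene's groups overlapped. Replicate 6 was the highest denervated array for both, and for Irf8 it stood clear of the next at 8.83.

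The 3 genes of the lysosome and its enzymes rose, Cd68 and Lyz2 by more than the median member and Laptm5 by less. Cd68, a glycoprotein of macrophage lysosomes, ran from 7.51 to 7.93 (median 7.68) in sham arrays and from 9.24 to 10.48 (median 9.99) in denervated ones. It rose by 2.20 ± 0.19, or 4.59-fold (limma adjusted p = 2.97e-05, n = 6 per group). Lyz2, the lysozyme of myeloid cells, moved from 10.49 to 10.79 (median 10.67) up to 12.11 to 13.05 (median 12.85), by 2.11 ± 0.14. For both genes replicate 2 was the lowest denervated array, yet it stood more than 1 unit above the highest sham array. Laptm5, a lysosomal membrane protein of blood cells, rose by 1.31 ± 0.14, with sham values of 8.34 to 8.62 (median 8.55) and denervated values of 9.29 to 10.25 (median 9.88).

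Surface and cytoplasmic markers of macrophage identity all rose, 6 of 6, with no overlap between the groups. Adgre1, which encodes the F4/80 antigen, rose by 1.39 ± 0.20, and its denervated values split into 4 arrays between 8.39 and 8.72 and 2 at 9.46 and 9.50, above a sham range of 7.18 to 7.70. Aif1 (Iba1), an actin-bundling protein of macrophages and microglia, moved from 7.45 to 7.78 (median 7.63) up to 8.50 to 9.79 (median 8.92), by 1.42 ± 0.18. Itgam, the CD11b chain of the complement receptor integrin, rose by 1.71 ± 0.20 from 6.09 to 6.53 (median 6.43) up to 7.13 to 8.75 (median 8.15). The membrane 4-domain genes had a wider spread. Ms4a6a ran from 7.58 to 8.06 (median 7.79) in sham and 8.98 to 11.94 (median 9.73) in denervated arrays, a rise of 2.17 ± 0.40. Ms4a7 rose by 1.41 ± 0.26, from 5.59 to 5.97 (median 5.83) up to 6.54 to 8.53 (median 6.97). Their highest values, 11.94 and 8.53, both came from replicate 6. Ptprc (CD45), the tyrosine phosphatase of all white blood cells and so not of macrophages alone, rose by 1.80 ± 0.25, from 7.66 to 8.06 (median 7.92) up to 8.98 to 10.89 (median 9.60). The limma adjusted p of these 6 genes lay between 0.000136 (Itgam) and 0.00171 (Ms4a7).

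Receptors for antibody, the receptor Lilrb4, signalling adaptors and the kinase Fgr rose in all 6 measured cases, again without overlap. Lilrb4, an inhibitory immunoglobulin-like receptor of myeloid cells, had the largest rise of the list. Its sham values lay at 5.21 to 5.90 (median 5.36) and its denervated values at 8.15 to 9.93 (median 9.44), a rise of 3.83 ± 0.26, or 14.2-fold (limma adjusted p = 4.88e-06, n = 6 per group). Fcgr3a, an activating receptor for immunoglobulin G, went from 5.30 to 5.76 (median 5.66) up to 7.31 to 10.74 (median 8.67), by 3.09 ± 0.45 (limma adjusted p = 0.000427). Both belong to families with close copies that can share probes, and both averaged below the array medians in sham bladders, so the sizes of these rises are uncertain.

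Fcgr1a, the high-affinity receptor for immunoglobulin G, rose by 1.75 ± 0.22 from 7.70 to 8.07 (median 7.92) up to 8.97 to 10.66 (median 9.61). Both adaptors rose. Fcer1g, the common gamma chain of Fc receptors, stood at 9.41 to 9.59 (median 9.49) in sham and 10.72 to 11.73 (median 11.02) in denervated arrays, a rise of 1.60 ± 0.14. Tyrobp (DAP12), the adaptor through which Trem2 signals, rose by 1.50 ± 0.17, from 8.34 to 8.89 (median 8.63) up to 9.68 to 10.62 (median 10.09). Fgr, a Src-family kinase of myeloid cells, had sham values of 6.04 to 6.38 (median 6.19) and denervated values of 6.64 to 8.45 (median 7.26). Its rise was 1.24 ± 0.24 (limma adjusted p = 0.00211), and 1.40 without denervated replicate 2, the array at 6.64.

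Genes of activation and recognition differed from one another. Cd84, an adhesion receptor of the SLAM family, rose by 2.21 ± 0.18, from 5.92 to 6.54 (median 6.31) up to 7.90 to 9.01 (median 8.62). Clec7a (dectin-1), a receptor for fungal glucans, rose by 1.89 ± 0.18, from 7.23 to 7.64 (median 7.49) up to 8.57 to 9.75 (median 9.50). Apobec1, a cytidine deaminase that edits RNA and is expressed by macrophages as well as gut, had the smallest adjusted p of the list. It rose by 1.63 ± 0.09 (limma adjusted p = 9.59e-07, n = 6 per group), with sham values of 8.09 to 8.46 (median 8.29) and denervated values of 9.61 to 10.07 (median 9.97). Cd86, a costimulatory ligand for T cells, was the 1 pan-macrophage gene not called. Its sham values were 8.70 to 9.26 (median 8.88) and its denervated values 8.43 to 9.83 (median 8.69). Only replicate 6, at 9.83, exceeded the sham range, and the difference was -0.06 ± 0.20 (limma adjusted p = 0.856).

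**Figure D2:**
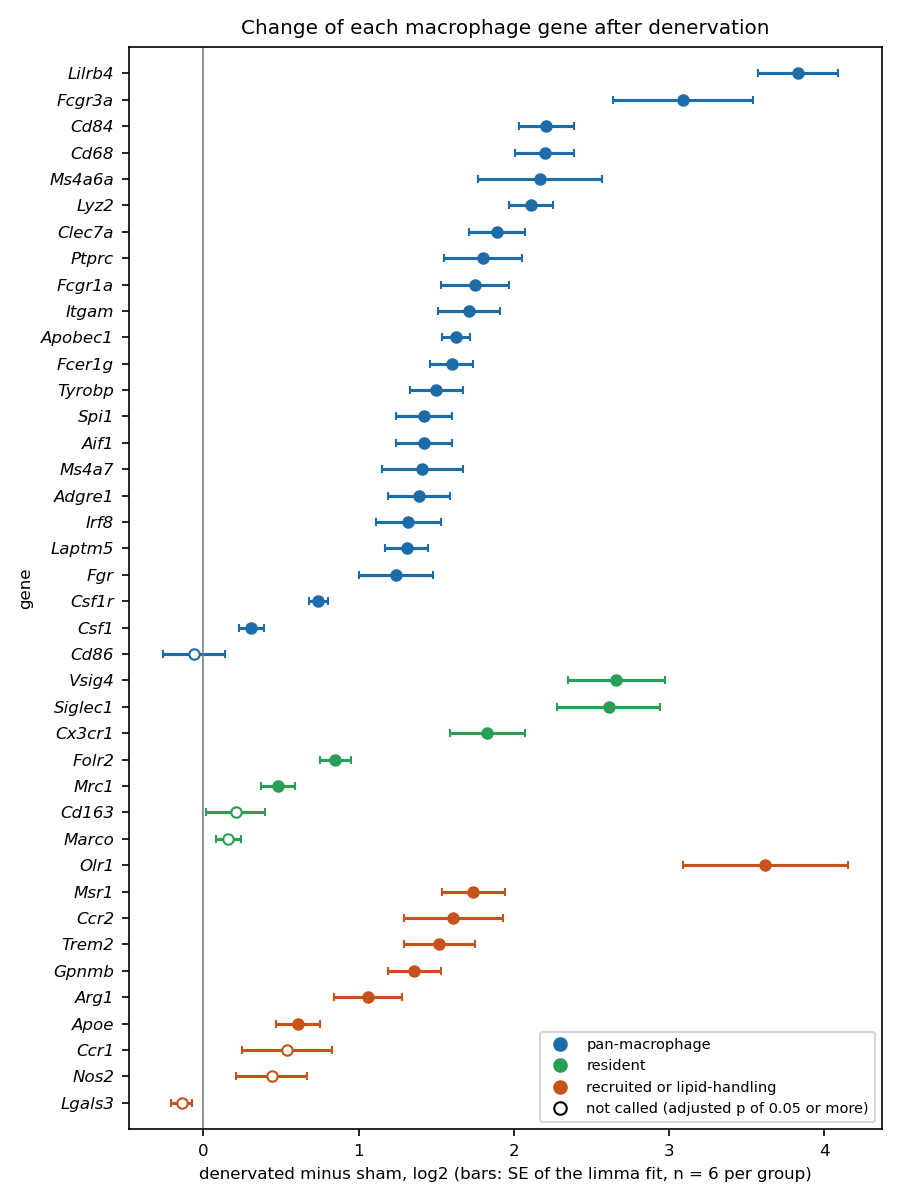
The horizontal axis is the denervated minus sham difference in log2 units, with 1 point per macrophage gene and bars for the SE of the limma fit (n = 6 per group). Colours give the class, and open points mark the genes that were not called. Lilrb4 (3.83) and Olr1 (3.62) lie farthest right, and resident genes run from 0.16 (Marco) to 2.66 (Vsig4).

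Of the 7 resident genes 5 rose, and the median change was 0.85, against 1.60 in the pan-macrophage class and 1.21 in the recruited or lipid-handling class. Mrc1 (CD206), a mannose receptor, moved only from 9.22 to 9.42 (median 9.37) up to 9.49 to 10.27 (median 9.80), by 0.48 ± 0.11, or 1.39-fold (limma adjusted p = 0.00541). Folr2, a folate receptor of perivascular and other resident macrophages, rose by 0.85 ± 0.10, from 9.31 to 9.66 (median 9.53) up to 10.05 to 10.57 (median 10.38). Both were separate between the groups. Cd163, the receptor for haemoglobin bound to haptoglobin, was not called. Its sham values lay at 7.78 to 8.17 (median 8.04) and its denervated values at 7.52 to 9.11 (median 8.17), with replicate 3 lowest and replicate 4 highest, and the difference was 0.21 ± 0.19 (limma adjusted p = 0.465). Marco, a scavenger receptor of some resident macrophages, was not called, at 5.88 to 6.24 (median 6.02) in sham and 6.03 to 6.38 (median 6.22) in denervated arrays (0.16 ± 0.08, limma adjusted p = 0.177).

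The 3 others of that class rose by more than Folr2 in their fitted values. Vsig4, a complement receptor of resident macrophages, was very dim in sham bladders, at 3.59 to 3.90 (median 3.64). Denervated replicate 2 reached 4.64 and the remaining 5 arrays 6.39 to 6.92, a rise of 2.66 ± 0.31 (limma adjusted p = 0.000129) and of 3.01 without that array. Its signal over background in sham bladders is unknown. Siglec1 (CD169), a sialic acid-binding receptor that is also induced by interferon, moved from 6.16 to 6.75 (median 6.45) up to 7.99 to 10.24 (median 9.07), by 2.61 ± 0.33 (limma adjusted p = 0.000188). Cx3cr1, the fractalkine receptor, which circulating patrolling monocytes also carry, rose by 1.83 ± 0.24, from 6.99 to 7.42 (median 7.30) up to 8.27 to 10.00 (median 9.09).

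The interferon-induced gene Mx1 is set here beside Siglec1. From replicate 1 to 6 Siglec1 stood at 8.64, 8.18, 7.99, 9.49, 9.64 and 10.24, and Mx1 at 8.42, 9.30, 7.42, 9.77, 10.15 and 12.13. Both were lowest in replicate 3 and highest in replicate 6, while replicates 1 and 2 stood in opposite order. Csf1r, Irf8, Ms4a6a, Ms4a7 and Tyrobp were lowest and highest in these same 2 arrays, so the pattern is not particular to Siglec1. The part of interferon in the rise of Siglec1 was not tested.

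In the recruited or lipid-handling class 7 of 10 genes rose. Ccr2, the receptor by which monocytes leave the marrow and enter tissue, ran from 8.08 to 8.63 (median 8.42) in sham and from 8.63 to 10.99 (median 10.06) in denervated arrays, a rise of 1.61 ± 0.32 (limma adjusted p = 0.00231). Replicate 2, at 8.63, just cleared the highest sham array, and without it the rise was 1.89. Ccr1, a receptor for several inflammatory chemokines, was not called (0.54 ± 0.29, limma adjusted p = 0.198). Its sham values lay at 6.84 to 7.49 (median 7.11) and its denervated values at 6.51 to 8.73 (median 7.79), with replicate 3 below all sham arrays. Without that array the difference was 0.77 and was called (limma adjusted p = 0.0300).

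The scavenger receptors Olr1 and Msr1 rose. Olr1 (LOX-1), which takes up oxidised lipoprotein and is also made by endothelium, varied in sham bladders more than any other member, from 4.52 to 6.85 (median 5.59). Its denervated values were 6.95 to 10.43 (median 9.41), so the groups came close only at sham replicate 1 (6.85) and denervated replicate 2 (6.95). The rise was 3.62 ± 0.53, or 12.3-fold (limma adjusted p = 0.000400, n = 6 per group). Olr1 averaged below the array medians in sham bladders, at 5.59, so the size of this rise is uncertain too. Msr1, the class A scavenger receptor, moved from 7.10 to 7.53 (median 7.28) up to 8.21 to 9.76 (median 9.02), by 1.74 ± 0.20.

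Of the 4 other genes linked with lipid or debris, Trem2, Gpnmb and Apoe rose and Lgals3 was not called. Trem2, a lipid-sensing receptor, had sham values of 7.48 to 7.95 (median 7.75), and denervated values of 8.52 and 8.45 in replicates 2 and 6 against 9.46 to 9.82 in the other 4, a rise of 1.52 ± 0.23 (limma adjusted p = 0.000510). Gpnmb, a glycoprotein of lipid-laden macrophages, rose by 1.36 ± 0.17, from 9.07 to 9.96 (median 9.52) up to 10.47 to 11.28 (median 10.96). Apoe, the lipoprotein ligand that macrophages and many stromal cells make, rose by 0.61 ± 0.14 (limma adjusted p = 0.00448). Its sham range of 10.35 to 10.70 (median 10.45) overlapped with the denervated range of 10.67 to 11.50 (median 11.06) through replicate 3. Lgals3 (galectin-3), a lectin of macrophages that urothelium also makes, was not called. It was bright in both groups, at 11.17 to 11.44 (median 11.33) in sham and 11.01 to 11.35 (median 11.16) in denervated arrays, a difference of -0.14 ± 0.07 (limma adjusted p = 0.156). Beside it, all 14 measured urothelial markers fell, with a median of -0.60, and their part in the value of Lgals3 was not tested.

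Of the enzymes that compete for arginine, Arg1 rose and Nos2 was not called. Arg1, arginase, stood at 6.41 to 6.61 (median 6.50) in sham arrays. Among denervated arrays it was 6.56 in replicate 2, within the sham range, and 7.24 to 8.19 in the other 5, a rise of 1.06 ± 0.22 (limma adjusted p = 0.00353) and of 1.27 without that array. Nos2, the inducible nitric oxide synthase, was not called (0.44 ± 0.23, limma adjusted p = 0.168). It lay at 4.76 to 5.14 (median 4.92) in sham and at 4.83 to 5.41 in 5 denervated arrays, with 6.55 in replicate 6.

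Whether members changed by unequal amounts was asked within each array, by taking a member's value minus that of Cd68 and comparing the groups. The exact permutation test over all 924 splits of the 12 arrays was two-sided, and p-values were adjusted over the 39 members compared. The smallest p that the design allows is 0.00216. In 32 of 39 members the change differed from that of Cd68, with 29 smaller and 3 larger. That balance depended on the gene taken as the reference. Against Ptprc 20 members differed, 15 smaller and 5 larger, and against Laptm5 27 differed, 11 smaller and 16 larger. The largest shortfalls against Cd68 were those of Lgals3 (-2.34 ± 0.20, SE), Cd86 (-2.26 ± 0.16), Marco (-2.04 ± 0.21), Cd163 (-1.99 ± 0.24) and Csf1 (-1.89 ± 0.18), each with an exact permutation adjusted p of 0.00422. Among genes that were themselves called higher, Mrc1 (-1.72 ± 0.23), Apoe (-1.58 ± 0.25), Csf1r (-1.46 ± 0.18) and Folr2 (-1.35 ± 0.15) fell short as well, with the same adjusted p. Lilrb4 rose by 1.63 ± 0.16 more than Cd68, with that adjusted p too, and Fcgr3a by 0.89 ± 0.34 more (exact permutation adjusted p = 0.0101).

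Of the 7 resident genes 4 had a smaller change than Cd68. For Cx3cr1 (-0.36 ± 0.35), Siglec1 (0.41 ± 0.21) and Vsig4 (0.46 ± 0.30) no difference was called (exact permutation adjusted p = 0.385, 0.102 and 0.199), and Vsig4 rose more than Cd68 without denervated replicate 2 (0.68, adjusted p = 0.0181). Without denervated replicate 3, Cx3cr1 (-0.64, adjusted p = 0.0101), Clec7a (-0.48, 0.0185) and Siglec1 (0.53, 0.0358) were called by the same test. The call of Olr1 (1.42 ± 0.55, adjusted p = 0.0448) was lost without any 1 of 9 arrays, that of Trem2 (-0.67 ± 0.33, adjusted p = 0.0448) without any 1 of 10, and that of Ptprc (-0.40 ± 0.14, adjusted p = 0.0225) without any 1 of 4. Lyz2, Cd84, Ms4a6a and Clec7a were not called, with differences of -0.09 ± 0.14, 0.01 ± 0.15, -0.02 ± 0.31 and -0.30 ± 0.26.

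Denervated arrays differed among themselves in how high the members stood. Over the 34 that rose, the median height above the sham mean was 1.02 in replicate 2, 1.26 in replicate 3, 1.59 in replicate 1, 1.72 in replicate 4, 1.89 in replicate 5 and 2.20 in replicate 6. Replicate 2 was the lowest denervated array for 22 of the 34, and yet above all 6 sham arrays for 33. The exception was Arg1. Replicate 6 was the highest for 20 genes, among them Cd68, Lyz2, Spi1, Irf8, Siglec1, Ccr2 and all 3 measured Fc receptor chains. Sham arrays stayed close together, with medians from -0.11 to 0.08.

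The order was not the same for every gene. Replicate 6 stood above replicate 3 in 27 of the 34 members and below it in 7. Fcgr3a, Ms4a6a and Irf8 were at 10.74, 11.94 and 9.62 in replicate 6 and at 7.62, 8.98 and 8.09 in replicate 3. Cx3cr1, Trem2 and Vsig4 went the other way, at 8.54, 8.45 and 6.39 in replicate 6 and 10.00, 9.63 and 6.92 in replicate 3. These 6 genes were chosen after their values were seen, and the split among samples was not tested.

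**Figure D3:**
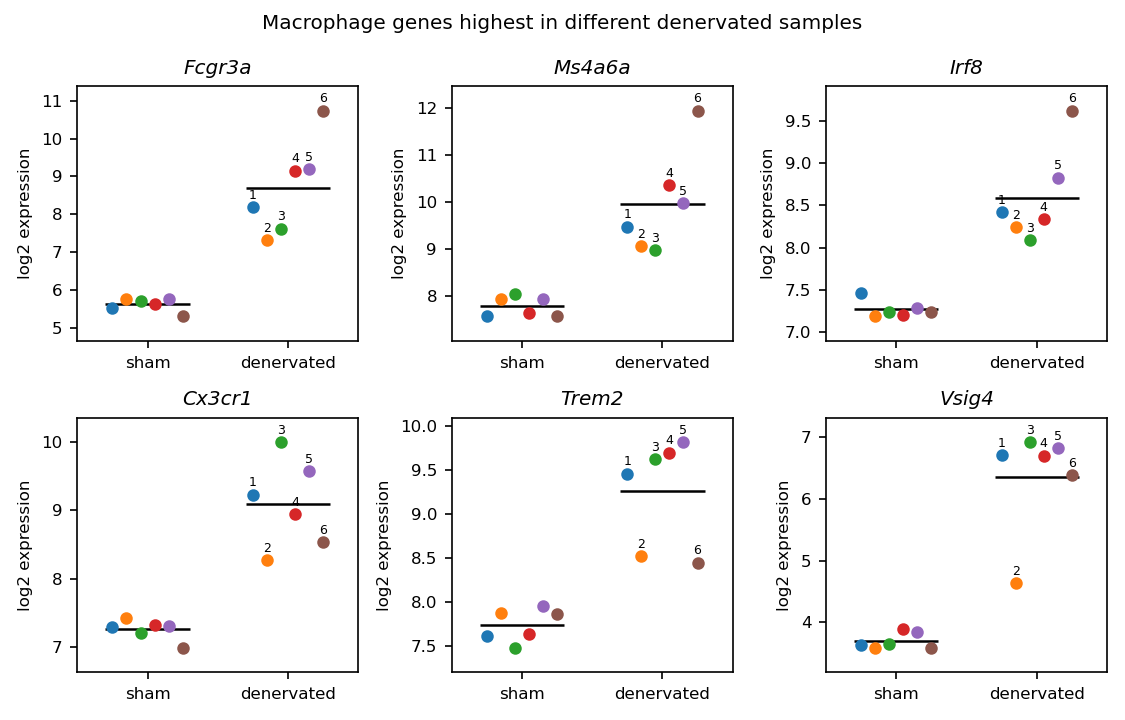
Each panel shows the log2 expression of 1 gene in the 6 sham and 6 denervated arrays, with the group mean as a bar and the replicate number above each denervated point. Replicate 6 is highest for Fcgr3a, Ms4a6a and Irf8 (top row), whereas Cx3cr1 and Vsig4 peak in replicate 3 and Trem2 in replicate 5 (bottom row).

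Other genes linked with monocytes and macrophages moved in the same direction for the most part. Some of them, such as Igf1 and Ctsb below, are expressed by other cells too. The part of those cells in the rises was not tested. Of 135 further genes listed by role, 116 were measured, and 76 rose, 7 fell and 33 were not called, with a median change of 0.51. The shares over all genes, here and for the lists below, were 11.9% higher and 16.9% lower. In signalling downstream of the Fc receptors and Tyrobp, 13 of 15 rose and none was called lower. They included the amplifying receptor Trem1 (1.69 ± 0.30), the exchange factor Vav1 (1.44 ± 0.18), the kinase Lyn (1.43 ± 0.21) and the adaptor Lcp2 (1.26 ± 0.15). Card9 (0.10) was among those not called.

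Lysosomal genes rose in 12 of 17 cases, with a median of 0.43 over the list. The proteases Ctsk (1.34 ± 0.18), Lgmn (1.25 ± 0.12) and Ctss (1.10 ± 0.14) and the acid lipase Lipa (1.18 ± 0.14) rose most. Lamp1 (0.08) and Ctsd (0.04), which nearly every cell uses, were among the 5 not called. Ctsb (0.51), Psap (0.37) and Lamp2 (0.19), also widely used, were called higher. Of 14 lipid-handling genes, 8 rose and 2 fell. Spp1 (osteopontin) rose by 5.03 ± 0.36, Pla2g7, which hydrolyses oxidised phospholipids, by 2.51 ± 0.16, Cd5l, a scavenger receptor family protein of macrophages, by 0.99 ± 0.30 and Soat1, which esterifies cholesterol for storage, by 0.91 ± 0.09. The 2 that fell were the tetraspanin Cd9 (-0.47 ± 0.06) and Fabp4 (-0.40 ± 0.14), a fatty acid-binding protein that is also a fat cell marker. Without denervated replicate 2, 9 of the 14 were called higher and 1 lower.

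Genes for the uptake of dying cells rose in 6 of 11 cases, with Mfge8, a bridging protein, at 1.33 ± 0.25, the receptors Axl at 0.85 ± 0.14 and Mertk at 0.51 ± 0.11, and their ligand Gas6 at 0.84 ± 0.12. Among 15 genes associated with tissue macrophages 10 rose and 2 fell. The 3 chains of complement C1q, C1qa (1.32 ± 0.15), C1qb (1.18 ± 0.13) and C1qc (1.15 ± 0.14), rose together with Igf1 (1.25 ± 0.16), a growth factor that stromal cells make too. The 2 that fell were Hpgds, a prostaglandin D synthase (-0.86 ± 0.19), and F13a1, a coagulation factor chain (-0.47 ± 0.11). Without denervated replicate 2, 11 were called higher and 4 lower. Lyve1 (0.30) was not called.

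Among 22 monocyte and inflammatory genes 17 rose, led by the integrin chain Itgb2 (2.21 ± 0.21), the chemokine Ccl3 (2.20 ± 0.33), the matrix proteoglycan Vcan (2.17 ± 0.32) and Plac8 (2.07 ± 0.39). Among ligands for Ccr2 and Cx3cr1, Ccl2 and Ccl7, which act on Ccr2, rose by 1.91 ± 0.42 and 1.33 ± 0.38. The groups overlapped for Ccl2 through denervated replicate 2, at 7.85 against a sham maximum of 8.34. Cx3cl1, the ligand of Cx3cr1, was not called (-0.20). Of 15 transcription factors 8 rose and 2 fell. Tfec (1.72 ± 0.23) and Irf5 (0.86 ± 0.16) led the rises, and Id2 (-0.61 ± 0.14) and Pparg (-0.60 ± 0.10), the latter also a gene of fat cells, were lower. In the growth factor family 2 of 7 rose, the receptors Csf3r (1.51 ± 0.27) and Csf2rb (1.15 ± 0.16), Csf3 was lower by a small amount (-0.23 ± 0.08, limma adjusted p = 0.0366), and Il34 (0.12), the other ligand of Csf1r, was not called.

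Markers of other cell types give the members a frame, as counts only, and these lists too were chosen with earlier results known. Macrophage genes had 34 of 40 called higher and a median of 1.46, against 11.9% and -0.04 over all genes. T and natural killer cell markers had 11 of 14 and a median of 0.71, led by Klrk1 (2.31), Nkg7 (1.31) and Cd8b (1.30). Array means over that list, relative to the sham mean, were -0.14 to 0.11 in sham and 0.36 to 1.76 in denervated arrays, with replicate 6 highest. Ptprc, Fcgr3a and Itgam are also expressed by natural killer or other white blood cells, and the part of these cells in their rises was not tested. In rats Cd4 (0.76 ± 0.09) is carried by macrophages as well as by T cells.

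Neutrophil markers were called higher in 3 of 10 cases, with a median of 0.33. Those called were Retnlg (2.49 ± 0.35), S100a8 (0.63 ± 0.13) and Mmp8 (0.51 ± 0.16), and without denervated replicate 2 the count was 6 of 10. Cxcr2 (0.73 ± 0.28) was not called. The granule genes Mpo (4.86 to 5.71 in denervated arrays), Elane (4.22 to 4.56) and Ltf (4.23 to 4.82) lay below the array medians and were not called. Of 6 dendritic cell markers 3 rose (Clec9a 0.83, Ccr7 0.80 and Xcr1 0.69). Of 8 B and plasma cell markers 3 rose (Jchain 2.92, Cd22 0.70 and Blk 0.29), and of 7 mast cell markers 2 (Tpsab1 0.59 and Cpa3 0.54). These lists are small, and 11.9% of all genes were called higher. Fibroblast markers rose in 8 of 12 cases with a median of 0.56 (Fap 1.58, Thy1 1.22 and Pdgfrb 1.22 most), and endothelial markers in 5 of 10 with a median of 0.27 (Sox18 1.06, Cdh5 1.00 and Erg 0.70 most).

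Smooth muscle (7 of 10), urothelial (14 of 14) and Schwann cell or neuron markers (7 of 14) were called lower, with medians of -0.53, -0.60 and -0.27. Among all genes 16.9% were called lower. The largest falls were those of Synpo2 (-0.99), Synm (-0.97) and Myocd (-0.89) in muscle, Krt20 (-1.80), Grhl3 (-0.88) and Upk3b (-0.83) in urothelium, and Scn7a (-3.15), Nefl (-2.23) and Cdh19 (-2.21) in nerve. In the muscle list Smtn rose (0.51 ± 0.15), and in the nerve list Tubb3 rose (1.34 ± 0.32). In denervated replicate 2, where the macrophage genes stood lowest, smooth muscle markers averaged -0.06 relative to sham, and the remaining denervated arrays -0.83 to -0.31. Schwann cell and neuron markers averaged -0.28 there and -0.91 to -0.60 in the remaining arrays. Replicate 2 was also the lowest denervated array for fibroblast markers (0.11, against 0.33 to 1.01 in the rest). The same held for endothelial (0.22, against 0.40 to 0.54) and neutrophil markers (0.25, against 0.42 to 0.63). Some lists set replicate 2 less apart. Urothelial markers averaged -0.52 there and -0.55 in replicate 1, and T and natural killer cell markers 0.47 there and 0.36 in replicate 3. The B and plasma cell list was highest in replicate 2, at 0.91. Fat cell markers were lower in 3 of 10 cases (Thrsp -1.87, Slc2a4 -1.38 and Fabp4 -0.40), with a median of -0.11. Without replicate 2, where their mean was -0.92, 2 were lower and the median was 0.08. Arrays were normalized to a common distribution, so each value is relative to all the RNA of a sample, and the part of a smaller muscle or urothelial share in the rises was not tested.

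**Figure D4:**
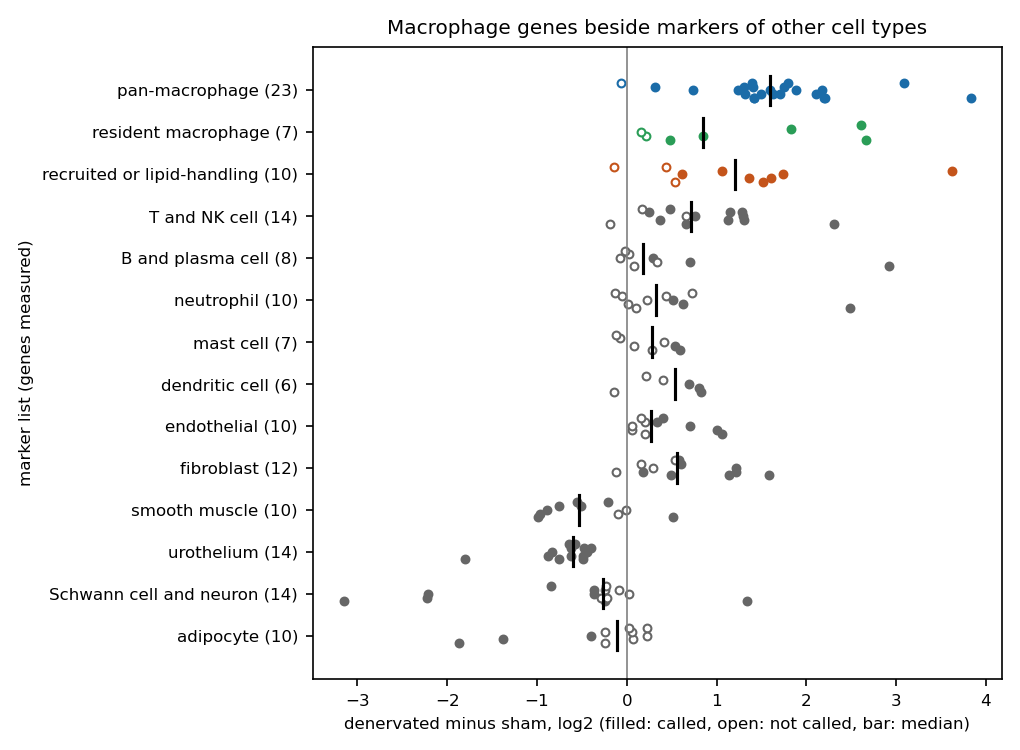
Each point is 1 gene of the list named at the left (number of genes measured in brackets), placed by its denervated minus sham difference in log2 units. Filled points were called, open points were not, and the bar is the list's median. The pan-macrophage median of 1.60 lies to the right of those of all other lists drawn.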

How the data were processed

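Biotin-labelled RNA of 12 bladder samples was measured on 12 arrays. The authors deposited log2 values of 36685 probe sets, made by RMA in Affymetrix Expression Console 1.4.1.46 per the submitters' processing notes. The annotation's genome build is not given in the sources used here. The number of arrays limits the precision. The platform's gene table names 18511 probe sets by 1 gene (18394 matched to RefSeq GRCr8 by identifier). The probe set with the highest mean stood for each of 18166 genes. Groups were compared with limma 3.58.1 in R 4.3.3 (lmFit, eBayes, two-sided, Benjamini-Hochberg over all genes, threshold 0.05). The fit was run on simulated data of 18166 genes, where 92 of 100 genes changed by 1 log2 unit and 99 of 100 changed by 2 were recovered. The simulated noise was independent between genes and had the same spread in both groups. In the data the spread could differ, as for Fcgr3a (SD 0.18 in sham and 1.26 in denervated arrays), so these shares may not hold there. The members and lists were chosen with earlier results of these data known. Every measured member is named. From each further role list the 4 called genes with the largest change are named, and from each marker list the 3 largest. Other genes named were chosen after their values were seen. Same-numbered arrays did not deviate together (correlations of -0.11 to 0.10), so no pairing was used. Batches of arrays are not given in those sources.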

Additional observations from a re-analysis of the deposited data

Results flagged for a closer look

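Among 142 groups of 6 values looked at, those of the members and of the genes named from further macrophage lists, 7 had 1 array far from the other 5. Chance alone would flag about 1 in 20, or 7.1. In denervated replicate 2, Lyz2 stood at 12.11 (12.74 to 13.05 in the other 5), Vsig4 at 4.64 (6.39 to 6.92) and Igf1 at 10.89 (11.62 to 12.03). Nos2 stood at 6.55 in denervated replicate 6 (4.83 to 5.41 in the others). Irf8 stood at 7.47 in sham replicate 1 (7.19 to 7.29). Cd5l stood at 3.87 in sham replicate 3 (4.57 to 4.93) and at 7.09 in denervated replicate 5 (5.08 to 5.53).

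Fcgr2a was not tested under its own name, but 4 probe sets carry its symbol beside those of neighbouring copies, and in all 4 every denervated value lay above every sham value. The probe set shared with Fcgr2b and Fcgr2al1 rose by 0.63 ± 0.10, and the 3 shared with Fcgr2al1 by 0.48 ± 0.09, 1.08 ± 0.11 and 1.15 ± 0.12 (limma over all probe sets, adjusted p of 0.000179 to 0.00294, n = 6 per group). Which of the copies gave the signal cannot be told.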

How the results depend on the processing

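The count of 34 members called higher was 34 or 35 under a further quantile normalization, median centring, the dimmest 25% left out, trend and robust settings, the exact rank-sum test, the mean of probe sets, all probe sets in 1 adjustment (added after the data were seen), the replicate number as a replicate block (34) and without each array in turn. With only genes brighter than the median gene it was 31 of 35. Both brightness filters used means over all arrays, denervated ones included, so members could pass through their denervated values. These filters are therefore no independent support for the calls, and 0 members were in the dimmest 25%. Direction and call held under every alternative run for 38 of 40 members. The exceptions were Ccr1, called without denervated replicate 3, and Cd86, whose change ran from -0.25 to 0.03 without single arrays and was above 0 without denervated replicate 2 (0.01), denervated replicate 3 (0.03) or sham replicate 5 (0.01). The 32 members that differed from Cd68 numbered 20 with Ptprc as the reference (15 smaller, 5 larger), 27 with Laptm5 (11 smaller, 16 larger), and 0 with signs flipped over same-numbered pairs (replicate block), where the smallest p is 0.0312 (24 of 39 under 0.05 unadjusted, smallest adjusted p 0.0508). Without single arrays they numbered 29 to 34. Csf3 and Cd5l also lost their calls under some alternatives. In sham bladders 12 of the 40 members averaged below the median gene. Beside Lilrb4, Fcgr3a and Olr1 these included Cd84, Itgam, Ms4a7, Fgr, Siglec1, Vsig4 and Arg1, so the sizes of their rises are uncertain too. How far dim genes stood above background is unknown, since the table holds no detection calls.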
